A study of Rattus norvegicus with 252 samples.

Results

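RNA was compared between 10 Q130 and 10 wild-type (WT) rat cerebella at 12 months of age, 20 of the 252 samples of a study of 4 brain regions at 2, 6 and 12 months. Members were the samples whose titles give Q130 KI or WT cerebellum at 12 months. The Q130 animals were Long Evans rats heterozygous for a knock-in allele, which serve as a model of Huntington's disease, and the WT animals carried no knock-in allele. Each group held 5 females and 5 males, and each library came from a different animal. All 20 libraries belonged to the batch that the labels name batch2. The first part of the animal identifiers took 6 values in Q130 animals and 6 in WT animals with none in common. The labels do not say what that part stands for, so it cannot be told apart from genotype. The labels do not state the repeat length measured in each animal.

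Huntington's disease is caused by an expanded CAG repeat in the huntingtin gene, which lengthens a glutamine tract in the protein. Degeneration is known to be most severe in the striatum and then in the cortex, and the cerebellum is often described as affected less or later. The cerebellum is dominated in cell number by granule neurons, and its output is carried by Purkinje neurons. The comparison asks which transcripts differ with the knock-in allele in a region outside those regarded as most vulnerable, at the oldest age sampled.

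Library totals ran from 26797185 to 39591956 estimated read counts, with a median of 30473737, and 17793 to 18337 genes had a count. The genes 2 or more log2 units higher in WT cerebellum at 2 months than in each other region numbered 272. At 12 months their mean log2 level lay between 4.07 and 4.59 in the 20 cerebellar libraries. In striatal, cortical and hippocampal libraries it lay between 0.04 and 0.77, so every cerebellar library matched its labelled tissue on this measure. The files give Ensembl rat identifiers without gene names and 0 of the 32883 matched a symbol in the annotation used, so the huntingtin gene was not examined as a check of genotype. Named cell type markers were likewise not examined, and genes are described by identifier, level, length and regional pattern.

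Libraries of Q130 female 2 and Q130 male 4 stood apart, with median correlations to the other libraries of 0.981 and 0.980, against up to 0.989. A further library, labelled WT female 1, went against its group at ENSRNOG00000011073, one of the 3 genes with the smallest p. Levels are in CPM, counts scaled by library size but not by gene length. In the cerebellum that gene lay between 133 and 192 CPM in Q130 libraries, against 177 CPM in WT female 1 and at least 227 CPM in the other WT libraries. In the striatum it lay between 102 and 144 CPM in Q130 animals, against 117 CPM in that WT animal and at least 132 CPM in the other WT animals. In the cortex the Q130 range was 115.0 to 153 CPM, against 115.1 CPM in that animal and at least 157 CPM in the other WT animals. In the hippocampus the Q130 range was 149.9 to 183 CPM, against 151.0 CPM in that animal and at least 165 CPM in the other WT animals. The same WT animal was thus the lowest of its group in all 4 regions, and each of its values fell within the Q130 range. The counts of calls, the named genes, some gene groups and the counts at other ages are given with and without such libraries. These omissions were partly chosen after seeing the data.

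In the cerebellum at 12 months, Q130 animals had higher levels than WT animals of 131 genes and lower levels of 107, at an adjusted p under 0.05 by edgeR's quasi-likelihood test with sex as a covariate. These 238 calls were 1.57% of the 15177 genes tested, 0.863% higher and 0.705% lower. The differences were small. The median absolute log2 fold change of called genes was 0.22, the range was -0.83 to 1.26, and 18 of the 238 exceeded 1.5-fold, 12 of them higher and 6 lower. Among all genes tested the signs were almost even, with 7506 higher and 7671 lower in Q130 and a median log2 fold change of -0.00. Of the 13805 genes with a mean of at least 1 CPM, 95.6% had a difference whose 95% interval lay within 1.5-fold in either direction. In tissue RNA, fewer cells of a type and less RNA per cell cannot be told apart.

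**Figure D1:**
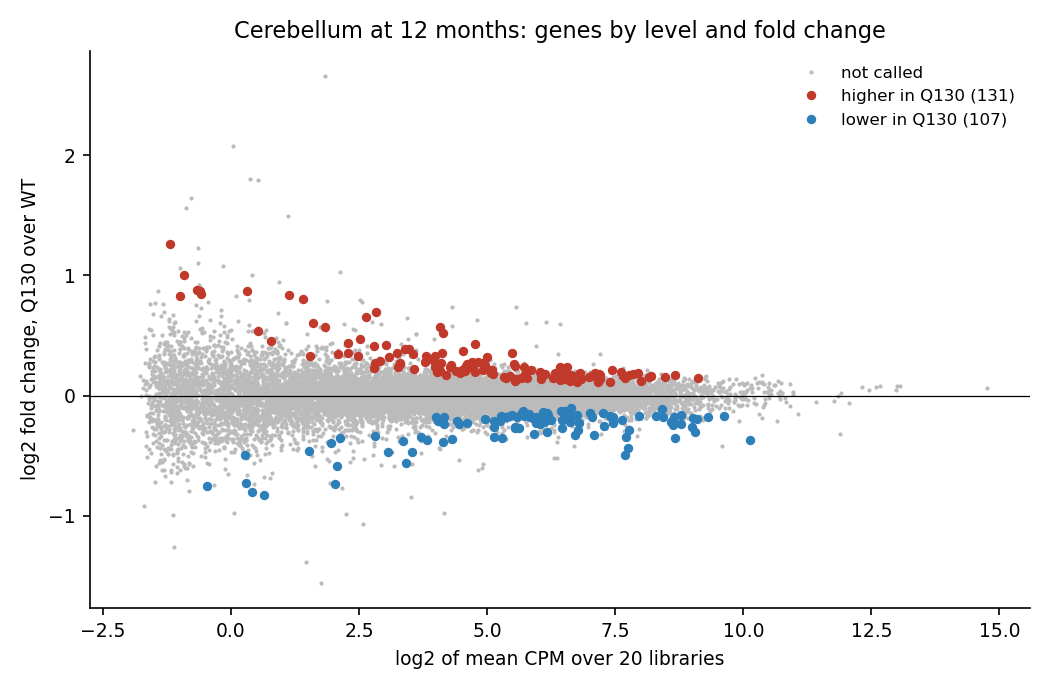
Each point is a gene, with the log2 of its mean CPM over the 20 libraries on the x axis and the log2 fold change of Q130 over WT at 12 months on the y axis. Colours mark the 131 genes called higher and the 107 called lower, with fold changes between -0.83 and 1.26 on the log2 scale.

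Without WT female 1 the count of calls was 446, with 238 higher and 208 lower, and 236 of the 238 calls were among them. Without Q130 female 2 and Q130 male 4 it was 157, with 73 higher and 84 lower, of which 126 were shared. Within males 88 genes were called. Within females 0 genes were called by the same edgeR test, although 1689 had an unadjusted p under 0.05. The genotype effect differed between the sexes for 0 of 15177 genes (0% called) by edgeR's test of the interaction term, while 1012 had an unadjusted p under 0.05.

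ENSRNOG00000011073 fell. Its lowest, median and highest levels were 133, 179 and 192 CPM in Q130 libraries, against 177, 249 and 279 CPM in WT libraries. All 10 Q130 libraries lay below the WT median and 5 lay below every WT library. The groups overlapped only through WT female 1. The means were 172 ± 19.99 CPM in Q130 and 243 ± 27.7 CPM in WT (SD, n = 10 each). On the log2 scale the difference was -0.50 ± 0.07 (SE; adjusted p by edgeR 0.00485), and without WT female 1 it was -0.54 ± 0.06 (adjusted p by edgeR 4.63e-05). Per length, in TPM (a level scaled by library size and gene length), its level averaged 26.1 ± 3.67 TPM in Q130 and 37.5 ± 4.42 TPM in WT.

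ENSRNOG00000010867, a gene of low level, had the most negative fold change of all called genes. Its lowest, median and highest levels were 0.57, 1.15 and 1.64 CPM in Q130 libraries, against 1.42, 1.73 and 3.34 CPM in WT libraries. Of the 10 Q130 libraries, 9 lay below every WT library. It fell by 0.83 on the log2 scale (SE 0.17, edgeR adjusted p = 0.0232), with means of 1.11 ± 0.31 CPM in Q130 and 2.00 ± 0.60 CPM in WT (SD, n = 10 each). The log2 difference was -0.88 without WT female 1 and -0.95 without Q130 female 2 and male 4, and it passed both times.

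ENSRNOG00000039969 rose by the largest factor among called genes with a mean of at least 1 CPM. Its lowest, median and highest levels were 0.97, 1.70 and 2.14 CPM in Q130 libraries, against 0.32, 0.79 and 1.44 CPM in WT libraries, and 7 Q130 libraries exceeded every WT library. The log2 difference was 0.87 ± 0.21 (SE; adjusted p by edgeR 0.0441), with means of 1.61 ± 0.38 CPM in Q130 and 0.88 ± 0.36 CPM in WT (SD, n = 10 each). This call was the least stable of the named genes, passing under 17 of 34 alternatives with the direction kept in all 34. The log2 difference was 0.97 without WT female 1 and 0.98 without Q130 female 2 and male 4, and it passed both times.

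ENSRNOG00000025889 had the smallest p among the called genes that rose and had a mean of at least 1 CPM. Its lowest, median and highest levels were 15.1, 17.4 and 18.7 CPM in Q130 libraries, against 12.0, 14.1 and 15.4 CPM in WT libraries. Of the 10 Q130 libraries, 9 exceeded every WT library. The means were 17.1 ± 1.23 CPM in Q130 and 14.0 ± 0.99 CPM in WT (SD, n = 10 each). On the log2 scale the difference was 0.29 ± 0.05 (SE; adjusted p by edgeR 0.00884). Per length it averaged 20.8 ± 1.12 TPM in Q130 and 17.4 ± 1.2 TPM in WT, so its TPM level was below that of ENSRNOG00000011073 in both groups. The log2 difference was 0.30 without WT female 1 and 0.27 without Q130 female 2 and male 4, and it passed both times.

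**Figure D2:**
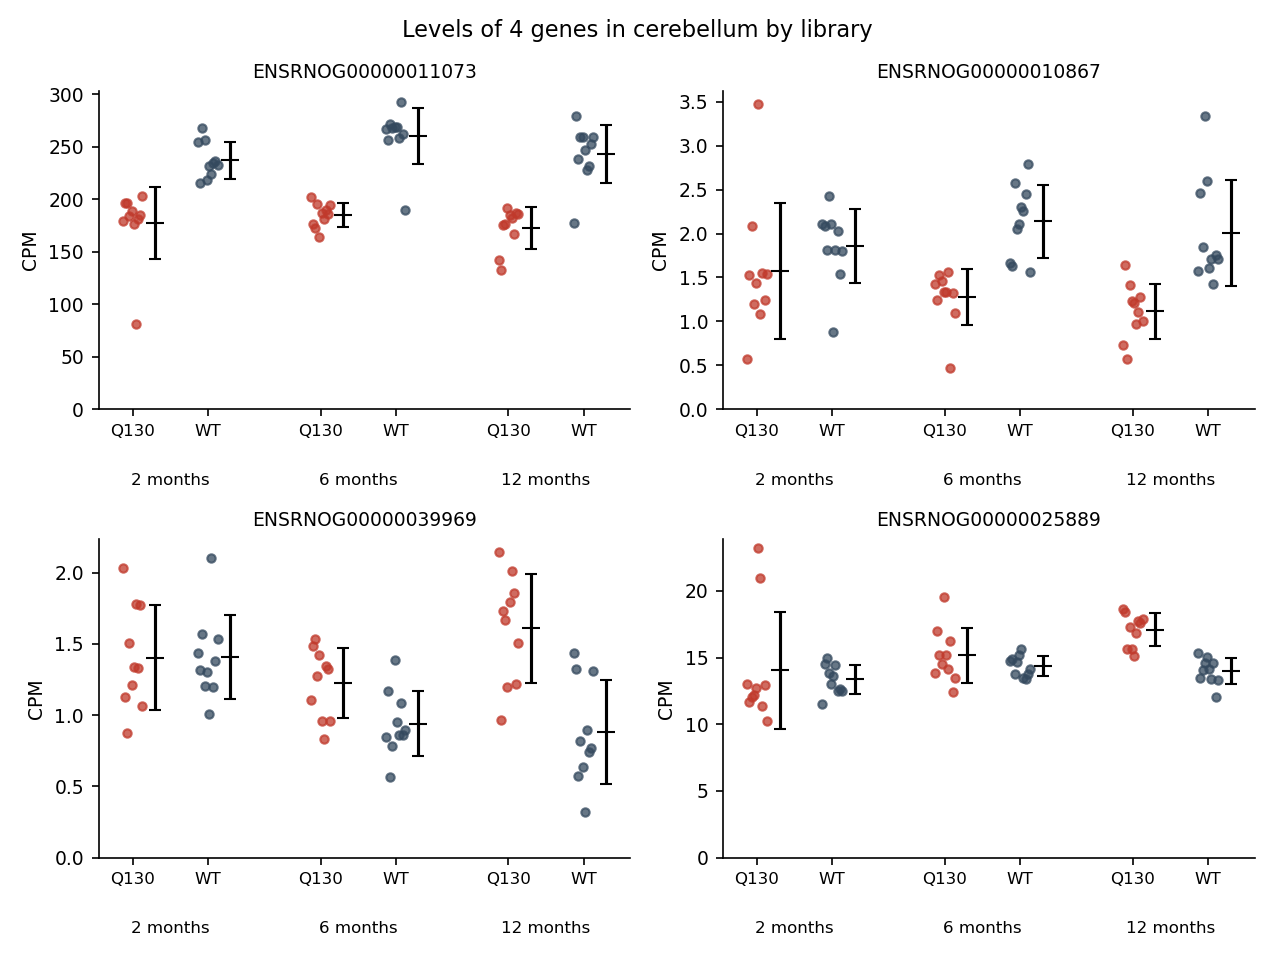
Points are single cerebellar libraries, with CPM on the y axis and Q130 beside WT at 2, 6 and 12 months on the x axis, for the 4 named genes. Black marks give mean and SD (n = 10 each). At 12 months ENSRNOG00000011073 spans 133 to 192 CPM in Q130 and 177 to 279 CPM in WT.

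Complete separation of the groups was rare. Of 15177 genes, 4 (0.0264%) had no overlap between Q130 and WT libraries, and all 4 were called and higher in Q130. The one with the highest level averaged 43.4 ± 0.85 CPM in Q130 and 39.3 ± 1.61 CPM in WT (SD, n = 10 each). The one with the lowest level averaged 2.00 ± 0.20 CPM in Q130 and 1.45 ± 0.22 CPM in WT (SD, n = 10 each). All 10 Q130 libraries lay beyond the WT median in 113 of the 131 higher and 95 of the 107 lower genes. The same libraries served to call these genes, so such counts describe the calls and are no separate evidence for them. The share over all genes tested was not counted.

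The genes that fell and the genes that rose differed in level and in regional pattern. Lower genes had a median level of 68.3 CPM (quartiles 33.1 and 161), higher genes one of 27.3 CPM (quartiles 11.5 and 87.3), and all genes tested one of 22.2 CPM. In WT animals at 2 months, other animals than those compared here, the cerebellum had the highest level of the 4 regions for 78 of the 107 lower genes (72.9%). This was so for 30 of the 129 higher genes measured there (23.3%) and for 5442 of 15157 genes tested (35.9%). The cerebellum had the lowest level of the 4 regions for 45.0% of the higher genes, 9.35% of the lower genes and 30.2% of all genes tested.

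The shares were similar without the libraries in doubt. Without WT female 1, the cerebellum was the highest region for 69.2% of the 208 lower genes and 19.1% of 236 higher genes. Without Q130 female 2 and Q130 male 4, it was the highest region for 67.5% of 83 lower genes and 20.8% of 72 higher genes.

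Of the 272 genes enriched in the cerebellum, 22 fell and 2 rose, so that 8.82% were called, against 1.57% of all genes. Their median log2 fold change was -0.03, against -0.00 over all genes, and 162 of the 272 had a lower mean in Q130. Their summed level was 25549 to 28838 CPM in Q130 libraries (27510 ± 1098) and 26872 to 31578 CPM in WT libraries (29416 ± 1516; SD, n = 10 each). The ranges overlapped, and the lowest sums of the Q130 group were those of the libraries that stood apart. Without these, 18 of the 272 were called, 16 lower and 2 higher, but the median was -0.02 and 46.7% had a positive fold change, against 51.6% of all genes. In females alone the median was -0.01, with 48.5% positive and 0 called, and in males alone it was -0.05, with 13 lower and 0 higher. Without WT female 1, 34 fell and 3 rose. Summed levels of striatum-enriched genes were 703 to 778 CPM in Q130 and 646 to 791 CPM in WT, and those of cortex-enriched genes 119 to 148 CPM in Q130 and 118 to 136 CPM in WT. The part of tissue composition in these values was not tested.

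Few genes enriched in other regions were tested. Of these, 1 of 31 cortex-enriched (3.23%), 1 of 25 hippocampus-enriched (4.0%) and 1 of 58 striatum-enriched genes (1.72%) rose and none fell, shares from 1 gene each, against 1.57% called over all genes. Of 297 genes depleted in the cerebellum, 4 rose and 1 fell (1.68%). Of 9006 genes at like levels in the 4 regions, 66 rose and 37 fell, 1.14% of them. Without Q130 female 2 and male 4, 28 of the 9006 rose and 38 fell, and without WT female 1, 124 rose and 79 fell.

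Called genes also differed in length. The effective length of a gene was taken from the ratio of its counts to its TPM values and set relative to the median gene. Its median was 1.67 for lower genes and 0.73 for higher genes. Genes were split by it into 3 classes of 5059. In the shortest class 69 rose and 10 fell, in the middle class 44 rose and 27 fell, and in the longest class 18 rose and 70 fell. Without Q130 female 2 and male 4 the same classes had 31 higher and 11 lower, 24 higher and 28 lower, and 18 higher and 44 lower, so the middle class turned. Without WT female 1 they had 122 higher and 26 lower, 74 higher and 54 lower, and 42 higher and 128 lower. The trend covered genes that were not called, since 64.6% of the shortest class and 32.7% of the longest class had a positive fold change. Per library, the median log2 deviation of the shortest class was subtracted from that of the longest class. The lowest, median and highest values were -0.22, -0.02 and 0.04 in Q130, against -0.02, 0.04 and 0.12 in WT. The lowest value was that of Q130 female 2, and without the libraries that stood apart the Q130 range began at -0.10 with the same median. The part of this trend in each call was not tested, beyond the setting that follows.

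The trend was removed from each library without regard to genotype, a setting chosen after seeing the data. The count was then 138 genes, 87 higher and 51 lower, of which 116 were among the 238. The cerebellum remained the highest region for 74.5% of these 51 lower genes and 24.7% of 85 higher genes.

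**Figure D3:**
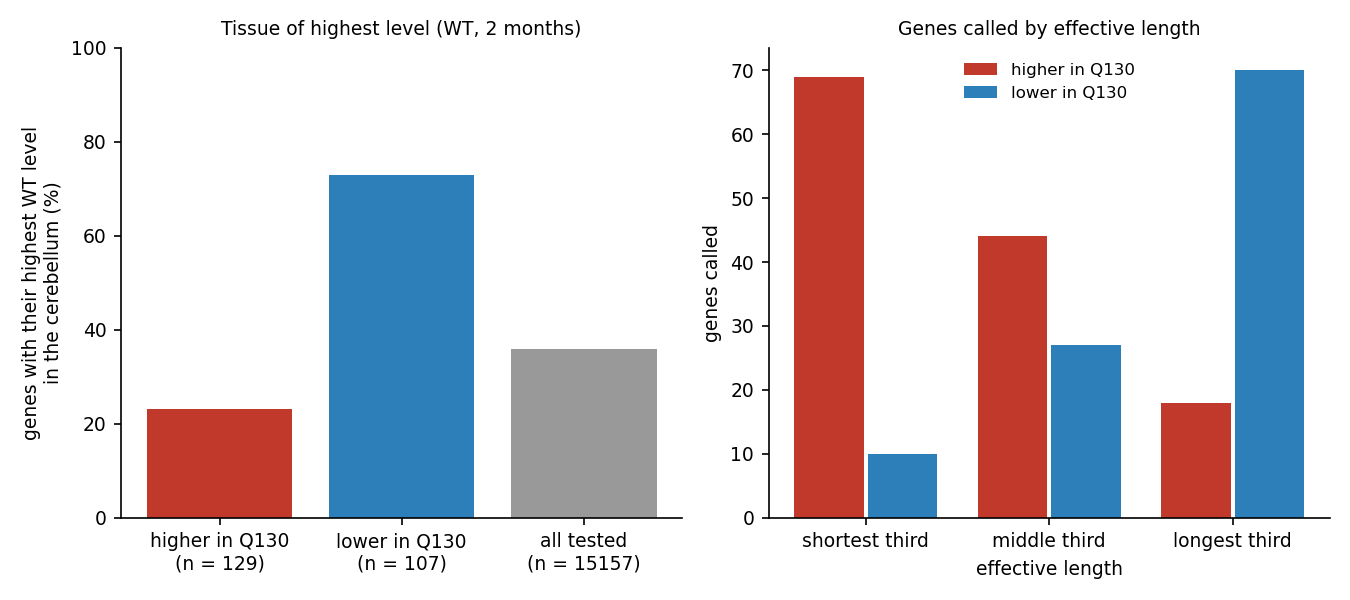
Left, bars give the percent of genes whose level in WT animals at 2 months was highest in the cerebellum, 23.3% for genes higher in Q130, 72.9% for genes lower in Q130 and 35.9% for all genes tested. Right, bars give the number of genes called higher or lower in each of 3 classes of effective length, with 69 higher and 10 lower in the shortest and 18 higher and 70 lower in the longest.

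Genes that change with age were set beside the genotype difference. In WT cerebellum 3034 of 15342 genes (19.8%) differed between 6 and 2 months by the same test. Of the 1462 that were higher at 6 months and tested at 12 months, 14 were higher and 20 lower in Q130 (2.33% called, against 1.57% of all genes), and 34.0% had a positive fold change, against 49.5% of all genes. With the length trend removed the calls of this group turned, to 17 higher and 6 lower, with 45.6% positive against 53.6% of all genes. Of the 1546 that were lower at 6 months, 24 were higher and 11 lower in Q130 (2.26% called), and 57.8% had a positive fold change. Without Q130 female 2 and male 4 the first group had 14 higher and 18 lower and the other 14 higher and 10 lower, and without WT female 1 they had 21 higher and 51 lower, and 46 higher and 15 lower. Among genes that differed between males and females in the younger animals (82 of 15724, 0.521%), 3 of 59 with higher levels in males rose in Q130 (5.08%), and 0 of 22 with higher levels in females were called, against 1.57% of all genes. These lists are too short for such counts to be read against that share.

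The cerebella of 6-month animals, which share no animal with those of 12 months, gave the same measure in other rats. There 7 genes were higher and 37 lower in Q130, 44 of 15305 (0.287%; 0.0457% higher and 0.242% lower), while 2120 had an unadjusted p under 0.05. Of the genes higher at 12 months, 117 of 130 also had a positive fold change at 6 months, with a median of 0.08 on the log2 scale, and 2 were called. Of the genes lower at 12 months, 98 of 107 were negative, with a median of -0.12, and 9 were called. Over all genes tested at 6 months 52.1% were positive and the median was 0.00.

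Across the 15133 genes tested at both ages, Pearson's r between the log2 fold changes was 0.23 and Spearman's rho 0.31. Across 237 genes called at 12 months, r was 0.82 and rho 0.83. Choosing genes called higher or lower at 12 months can by itself raise both values above those over all genes. Genes of one library share its depth and composition and are not independent replicates. With the length trend removed at both ages, 78 of 86 higher and 48 of 51 lower genes kept their direction.

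**Figure D4:**
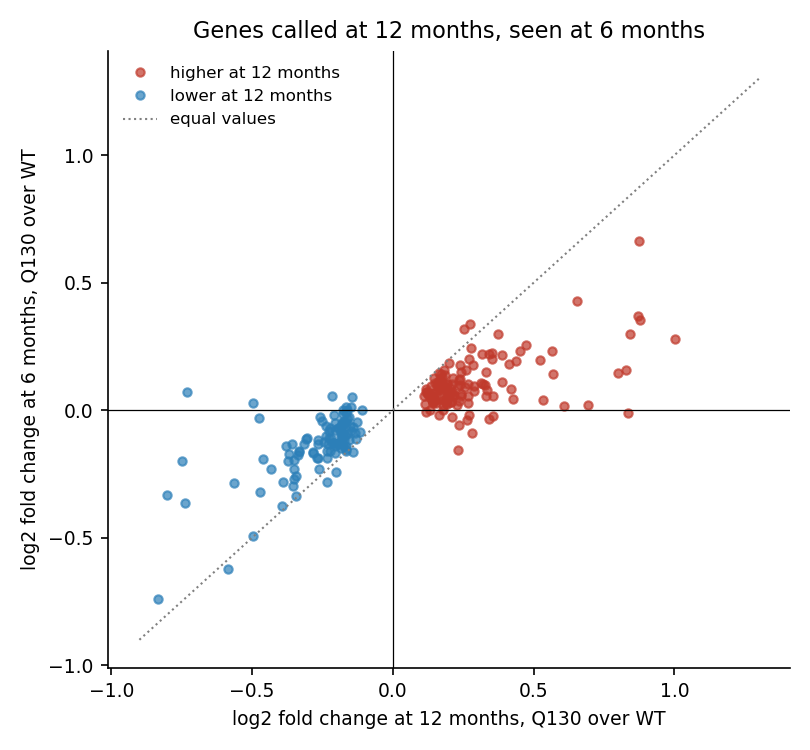
Each point is a gene, with the log2 fold change of Q130 over WT at 12 months on the x axis and at 6 months, in other animals, on the y axis. Coloured points are genes called at 12 months, of which 117 of 130 higher and 98 of 107 lower genes have the same sign at 6 months; the dotted line marks equal values.

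The difference between the ages was tested directly. It passed for 0 of 15866 genes (0% called) between 12 and 6 months by edgeR, while 659 had an unadjusted p under 0.05. Batch and age change together between those ages, although each genotype comparison lies within 1 batch. The sharing of the first part of the animal identifiers between genotypes also changes with age. At 2 months every value found in WT animals was also found in Q130 animals. At 6 months 1 value was shared, and at 12 months none was. The part of this sharing in the differences between ages was not tested. At 6 months WT male 5 was one of 2 libraries that stood apart, and its level of ENSRNOG00000011073 was 190 CPM, within the Q130 range of 164 to 202 CPM and below the other WT libraries, which had at least 256 CPM. Without it 471 genes were called at 6 months, 105 higher and 366 lower, of which 39 were among the 238. Then 121 of the 130 higher genes were positive and 102 of the 107 lower genes negative. Of the genes called at 12 months without WT female 1, 209 of 237 higher genes were positive at 6 months and 195 of 208 lower genes negative.

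At 2 months 0 of 15349 genes (0%) passed by edgeR, while 244 had an unadjusted p under 0.05. Of the genes higher at 12 months 88 of 129 were positive there, with a median of 0.04, and of the lower genes 60 of 107 were negative, with a median of -0.01, where 50.5% of all genes were positive. This lean rested on 2 Q130 libraries that stood apart at that age, male 1 and male 2. Without them it turned, with 34 of 130 higher genes positive (median -0.04) and 32 of 107 lower genes negative (median 0.04). The difference between the genotype effects at 12 and 2 months passed for 1 of 15866 genes (0.0063%), while 1107 had an unadjusted p under 0.05. Without WT female 1 it passed for 14 genes, 12 of them among the 238. Without the 6 libraries that stood apart at the 3 ages it passed for 602, of which 140 were among the 238. The 12-month libraries that called the 238 genes also enter this difference, so these overlaps are no separate evidence.

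The log2 means of the higher genes minus those of the lower genes gave a score for each library, used as a description only. Its lowest, median and highest values at 12 months, where it was built, were -0.99, -0.85 and -0.68 in Q130, against -1.67, -1.43 and -1.05 in WT. The WT library nearest to the Q130 range was WT female 1. At 6 months they were -1.27, -1.04 and -0.85 in Q130, against -1.45, -1.36 and -0.87 in WT. The WT libraries within the Q130 range were female 5 (-1.14), male 2 (-1.24), male 4 (-1.20) and male 5 (-0.87). The WT median of 6 months was exceeded by all 10 Q130 libraries of that age. At 2 months they were -1.47, -1.17 and 0.08 in Q130, against -1.33, -1.16 and -1.06 in WT, and the WT median was exceeded by 4 of 10 Q130 libraries. The value of 0.08 was that of Q130 male 2, and without the libraries that stood apart the Q130 values were -1.47, -1.23 and -1.13.

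The 4 named genes differed in how far back the difference reached. ENSRNOG00000011073 had log2 fold changes of -0.42 ± 0.11 at 2 months and -0.49 ± 0.06 at 6 months (SE; adjusted p by edgeR 0.973 and 7.13e-05). At 2 months all 10 Q130 libraries nevertheless lay below all 10 WT libraries, at 81.5 to 203 CPM in Q130 against 215 to 268 CPM in WT. The lowest of these was Q130 male 2, which stood apart, and the next lowest had 176 CPM. ENSRNOG00000010867 had -0.24 ± 0.23 at 2 months and -0.74 ± 0.16 at 6 months (edgeR adjusted p = 0.973 and 0.0493). Its highest Q130 level at 2 months was that of male 1, which stood apart, at 3.48 CPM, and the next highest was 2.09 CPM. ENSRNOG00000039969 had 0.00 ± 0.15 and 0.37 ± 0.15, and ENSRNOG00000025889 had 0.06 ± 0.13 and 0.07 ± 0.06, at 2 and 6 months, none of which passed. For ENSRNOG00000025889 at 2 months, Q130 male 1 and male 2, which stood apart, had 23.2 and 21.0 CPM. Its median there was 12.5 CPM in Q130 and 13.3 CPM in WT. The difference between ages did not pass for any of the 4 genes, with edgeR adjusted p from 0.364 to 0.959 against 2 months and of 0.9997 against 6 months, which does not show that the effects were equal.

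Striatum, cortex and hippocampus of the same 12-month animals were set beside the cerebellum. By the same edgeR test 0 of 15426, 0 of 15275 and 0 of 15317 genes passed (0% each), while 1505, 618 and 716 had an unadjusted p under 0.05. The genes higher in the cerebellum had median log2 fold changes of 0.06, -0.01 and 0.01 in these regions, in that order, and the lower genes -0.02, 0.01 and -0.01. In striatum 82 of 126 higher genes (65.1%) and 47.2% of lower genes were positive, against 56.5% of all genes. In cortex 46.8% of higher and 55.2% of lower genes were positive, against 54.4% of all genes. In hippocampus 57.8% of higher and 37.7% of lower genes were positive, against 48.8% of all genes. Without the libraries that stood apart in each region, higher genes were positive in 60.3%, 43.7% and 70.3% and lower genes in 38.7%, 59.0% and 34.9%, in the same order, against 50.6%, 50.2% and 50.9% of all genes. The regions share animals, so these values are not independent of each other.

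The genotype effect in the cerebellum minus the mean effect in the other 3 regions passed for 48 of 16438 genes (0.292%), with animal as a block, 22 above and 26 below 0. Of the 238 genes, 30 were among them, 16 higher and 14 lower in Q130 cerebellum, each with an interaction of the same sign. Without the animal of WT female 1 it passed for 65 genes, 36 of them among the 238. Without the 7 libraries that stood apart in their regions it passed for 457, of which 120 were among the 238. The cerebellar libraries that called the 238 genes also enter this difference, so these overlaps and the shared signs are no separate evidence.

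ENSRNOG00000011073 had negative fold changes in every region at 12 months, with log2 values of -0.42 ± 0.07 in striatum, -0.34 ± 0.08 in cortex and -0.25 ± 0.06 in hippocampus (SE, edgeR adjusted p = 0.0821, 0.857 and 0.860). In each region all 10 Q130 libraries lay below the WT median. Without the animal of WT female 1 the values were -0.46 ± 0.06, -0.39 ± 0.05 and -0.29 ± 0.05 (edgeR adjusted p = 0.00278, 0.00111 and 0.0538), and it was then the 1 gene called in striatum and the 1 gene called in cortex. The cerebellar effect minus the mean of the other regions was -0.16 ± 0.07 (edgeR adjusted p = 0.294), so a difference between regions was not shown. ENSRNOG00000010867 had -0.39 ± 0.08 in striatum, -0.38 ± 0.16 in cortex and -0.21 ± 0.08 in hippocampus, none of which passed. ENSRNOG00000025889 had 0.04 ± 0.08, -0.10 ± 0.08 and -0.02 ± 0.07 in the same order, and its cerebellar effect minus their mean was 0.31 ± 0.09 (edgeR adjusted p = 0.0912).

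**Figure D5:**
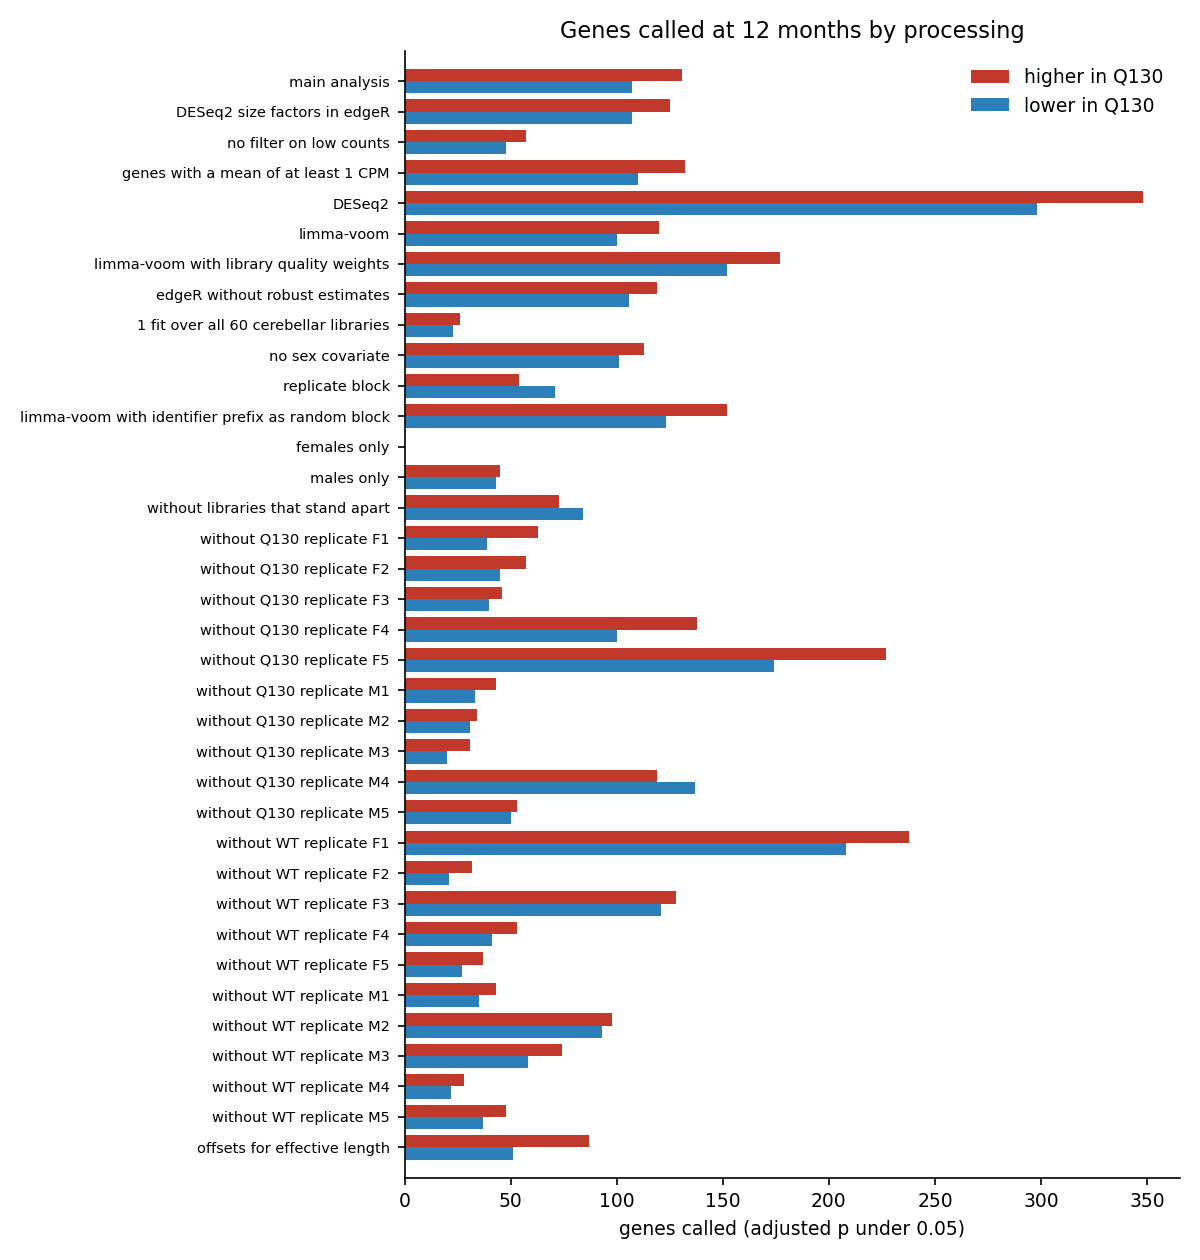
Horizontal bars give the number of genes called higher and lower in Q130 cerebellum at 12 months, 131 and 107 in the main analysis, under each alternative and without each library in turn. The total runs from 50 without WT male 4 to 446 without WT female 1 among the single-library omissions, and is 0 in females alone.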

How the data were processed

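Per the labels' protocols, total RNA came from frozen tissue by a Qiagen kit, and enriched RNA went into Illumina libraries. The sources used here name no aligner, counter, genome build or use of strand. Overlapping, antisense and near-identical genes may therefore share reads. The authors deposited estimated counts (expected counts) per gene, which were rounded. They also deposited per-length values in a table named FPKM, whose columns each have the total of TPM values, so its values are treated as TPM. It served for levels per length and for effective lengths. Transcript tables were not used. Of the count columns, 24 were not used, because their names fit more than 1 sample, and 228 were used.

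Genes were filtered with edgeR's filterByExpr by group, which kept 99.9% or more of each library's counts. Fits used TMM scaling, robust quasi-likelihood (edgeR 4.0.16, R 4.3.3), sex and genotype, with Benjamini-Hochberg adjusted p under 0.05. log2 levels used a prior count of 2. SE is the log2 fold change over the square root of F. Interactions were tested on 60 cerebellar libraries for age and on 80 libraries of 12 months, with animal as block, for region. A library stood apart if its median correlation lay more than 3 median absolute deviations below the median. limma 3.58.1 and DESeq2 1.42.0 gave alternatives.

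On simulated counts for this comparison, 64% of 200 genes changed 1.25-fold (15114 genes) and 93% of 200 changed 1.5-fold (15101 genes) were recovered, with 5 and 8 false calls. The changed genes had a mean of at least 1 CPM, and each gene was drawn independently. No library was made to stand apart and no length trend was put in, so these values may not hold for the real libraries. Between libraries of a group, counts varied at least 2.71 times as much as sampling noise over 90 pairs, so none was counted as a repeat. Of 81 genes that differ between the sexes, 12 separated females and males completely at 12 months. Genes to name were to be the targeted gene, called members of gene lists, 3 known identifiers and the 10 highest, 10 lowest and 10 smallest p. As identifiers carry no gene names, the lists and the targeted gene were not examined and 4 identifiers are given: 2 of the 3 known ones, and 2 that rose. The samples, lists and identifiers were chosen with earlier results of these data known.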

Additional observations from a re-analysis of the deposited data

Results flagged for a closer look

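The level of ENSRNOG00000011073 in the WT female 1 library, 177 CPM, lay far from the other 9 WT libraries of 12 months, of which the nearest had 227 CPM. It was the 1 such sample in 16 groups of 10 at that age, which held the levels of the 4 named genes and 4 library measures in each genotype. The same animal was the lowest WT animal for this gene in the other 3 regions too.

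Among 36 further groups, the named genes in the other comparisons, 9 had a sample far from the others, where chance flags about 5% of groups. For ENSRNOG00000011073 these were WT male 5 of cerebellum at 6 months (190 CPM, nearest 256 CPM), Q130 male 2 of cerebellum at 2 months (81.5 CPM, nearest 176 CPM), Q130 female 2 of striatum (144 CPM, nearest 119 CPM) and WT female 2 of cortex (115 CPM, nearest 157 CPM), which came from the animal of cerebellar WT female 1. For ENSRNOG00000010867 they were Q130 male 3 of cerebellum at 6 months (0.47 CPM, nearest 1.09 CPM), Q130 male 1 of cerebellum at 2 months (3.48 CPM, nearest 2.09 CPM) and Q130 male 3 of striatum (2.78 CPM, nearest 3.72 CPM). ENSRNOG00000039969 had WT male 2 of cerebellum at 2 months (2.10 CPM, nearest 1.57 CPM), and ENSRNOG00000025889 had Q130 male 4 of cortex (13.5 CPM, nearest 18.5 CPM). Of these libraries, 6 also stood apart in their comparison.

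The genotype effect differed between 12 and 2 months for 1 gene. Its log2 fold change was -0.74 ± 0.14 at 12 months, -0.36 ± 0.15 at 6 months and 0.40 ± 0.15 at 2 months (SE), and the difference was -1.14 ± 0.21 (edgeR adjusted p = 0.0215). At 12 months it averaged 3.05 ± 0.59 CPM in Q130 and 5.09 ± 1.26 CPM in WT (SD, n = 10 each).

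The genotype effect in the cerebellum differed from that in the other regions for 48 genes. The interaction ranged from -0.86 to 0.78 on the log2 scale over these 48 genes, of which 30 were also called in the cerebellum. The same cerebellar libraries enter both tests.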

How the results depend on the processing

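The count of 238 genes lay within 1.5 times under DESeq2 size factors, a minimum mean of 1 CPM, limma-voom with and without quality weights, no robust estimates, no sex term and the identifier prefix as a random block (214 to 329). The correlation within prefixes was -0.02. No prefix was shared between the genotypes, so this block cannot separate prefix from genotype. The count was 646 with DESeq2, 105 with no filter on low counts, 49 in 1 fit over 60 libraries, 138 with length offsets, 157 without the libraries that stood apart, 88 in males and 0 in females. Leaving out single libraries gave 50 (WT male 4) to 446 (WT female 1). For 16 of 20 libraries the count moved by more than 1.5 times. These were Q130 female 1 (102), female 2 (102), female 3 (86), female 5 (401), male 1 (76), male 2 (65), male 3 (51) and male 5 (103), and WT female 1 (446), female 2 (53), female 4 (94), female 5 (64), male 1 (78), male 3 (132), male 4 (50) and male 5 (85). The cause was not tested, beyond fewer samples in the omissions and single sexes.

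With the replicate block the count was 125, 54 higher and 71 lower, 104 of them shared. The numbers did not pair the animals: correlations of 10 pairs ran from -0.13 to 0.10, and 2 of 10 correlated best with their own number.

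The 44 calls at 6 months became 12 with DESeq2 size factors, 10 with no filter, 9 with limma-voom, 398 without libraries that stood apart, 99 with length offsets and 471 without WT male 5. The 1 gene of the difference between 12 and 2 months became 0 with limma-voom, 602 without libraries that stood apart and 14 without WT female 1. The omissions of WT male 5 at 6 months and of WT female 1 in the age and regional differences were chosen after seeing the data. The 48 genes of the regional difference became 23 with no filter and 457 without libraries that stood apart. No named gene changed direction. ENSRNOG00000011073 passed under 34 of 35 alternatives, ENSRNOG00000010867 under 32 of 34, ENSRNOG00000025889 under 33 of 35 and ENSRNOG00000039969 under 17 of 34. Of 102 group medians under alternatives, 12 changed sign and 2 moved beyond the spread between libraries, both with length offsets: genes at 100 CPM or more (0.02) and the longest length class (0.01). Small differences in genes of low level are the ones that depth limits.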

Other observations

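Calls were spread unevenly over the levels of expression. Of 1372 genes tested at under 1 CPM, 6 rose and 1 fell (0.510%), and of 3856 genes at 1 to 10 CPM, 25 rose and 11 fell (0.934%). Of 7674 genes at 10 to 100 CPM, 73 rose and 58 fell (1.71%), and of 2275 genes at 100 CPM or more, 27 rose and 37 fell (2.81%). Over all genes tested 1.57% were called. How easily a gene is called at each level was not tested. Falls outnumbered rises in the highest class of the 4, which without Q130 female 2 and male 4 had 10 higher and 30 lower and without WT female 1 had 50 higher and 80 lower. With the length trend removed it had 17 higher and 19 lower. Without Q130 female 2 and male 4 the class at 10 to 100 CPM had 42 higher and 43 lower.

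The length pattern was not alike in the 4 regions. At 12 months in striatum, 61.1% of the shortest and 53.0% of the longest length class had a positive fold change, in cortex 50.5% and 58.5%, and in hippocampus 45.7% and 51.1%. In the cerebellum at 6 months it was 59.5% and 44.6%, and without WT male 5 60.9% and 41.5%. At 2 months it was 64.8% and 36.5%, but this rested on Q130 male 1 and male 2, which stood apart. Without them it turned, to 32.5% of the shortest and 67.7% of the longest class, and per library the longest minus the shortest class had a median of 0.09 in 8 Q130 libraries and 0.03 in 10 WT libraries. Without the libraries that stood apart the shares were 54.4% and 47.2% in striatum, 39.3% and 61.6% in cortex and 52.3% and 48.1% in hippocampus, where the order turned. Of 37 genes called lower at 6 months, 15 (40.5%) had their highest WT level in the cerebellum, against 78 of 107 (72.9%) at 12 months, a difference that was not tested. Over all genes tested at 12 months the share was 35.9%. The 37 genes come from the fit that holds WT male 5, without which 366 genes were called lower.

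The first principal component of the 20 libraries of 12 months took 16.2% of the variance, of which genotype accounted for 1.95%. Sex accounted for 94.7% of the second (13.7% of the variance), and genotype for 29.9% of the third (9.66%).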
